A study of Mus musculus with 35 samples.

Results

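Notch receptors and targets are described here through 7 genes of the 52636 in a table of RNA sequencing counts from sorted mouse CD8 T cells: the receptor genes Notch1, Notch2 and Notch3, the transcription factor gene Rbpj and the target genes Hes1, Dtx1 and Nrarp. They were taken by name, each from the 1 row whose Ensembl identifier carries that symbol, and all 7 had enough counts to be tested among 10296 genes. The C57BL/6 mice all carried a Cre transgene (Lcre+/-), whose promoter and cell type the labels do not give. With it, KO mice had 2 floxed copies of Dot1l (Dot1Lfl/fl), Het mice 1 (Dot1Lfl/wt) and WT mice none (Dot1Lwt/wt). Dot1l encodes a histone H3 methyltransferase that acts at transcribed genes. From each genotype CD8 single positive thymocytes were sorted, and from spleen the naive (CD44- CD62L+) and the memory (CD44+ CD62L+) CD8 T cells. This gives 9 groups of 4 libraries, except for WT thymus with 3. No ages are given, and the labels do not say whether replicates came from separate animals.

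Notch receptors are cut in steps when a ligand on a neighbouring cell binds them, and the released intracellular domain enters the nucleus. There it joins RBPJ, a DNA-binding protein that otherwise holds target genes down with corepressors, and Mastermind coactivators. Hes1 encodes a repressor that is a classical direct target, Dtx1 an E3 ubiquitin ligase induced by Notch, and Nrarp a small protein that is induced by Notch and limits it. In the thymus, NOTCH1 commits precursors to the T cell lineage and NOTCH3 is known from immature thymocytes, and in peripheral CD8 T cells NOTCH1 and NOTCH2 take part in effector differentiation.

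The 4 members that were called in KO against WT libraries in at least 1 subset and that have an entry in the RefSeq promoter table (GRCm38.p6) are shown by the 250 bases before their start, to give the sequence that lies before genes which moved in different directions. Capitals mark a GC box (GGGCGG, the motif of SP1-type factors) or an N box (CACNAG, a motif that HES proteins bind), on either strand. No base belongs to both motifs, and in Nrarp a pair of GC boxes share 1 base. The windows are chr2:26503823-26504072 (minus strand) for Notch1, which lies in an intron of a longer annotated transcript, chr3:98013288-98013537 (plus strand) for Notch2, chr17:32166891-32167140 (minus strand) for Notch3 and chr2:25180508-25180757 (plus strand) for Nrarp.
Notch1: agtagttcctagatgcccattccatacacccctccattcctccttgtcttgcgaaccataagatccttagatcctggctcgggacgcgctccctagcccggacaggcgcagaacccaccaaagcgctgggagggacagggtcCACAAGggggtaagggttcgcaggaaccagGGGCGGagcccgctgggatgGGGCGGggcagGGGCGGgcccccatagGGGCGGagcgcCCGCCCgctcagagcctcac
Notch2: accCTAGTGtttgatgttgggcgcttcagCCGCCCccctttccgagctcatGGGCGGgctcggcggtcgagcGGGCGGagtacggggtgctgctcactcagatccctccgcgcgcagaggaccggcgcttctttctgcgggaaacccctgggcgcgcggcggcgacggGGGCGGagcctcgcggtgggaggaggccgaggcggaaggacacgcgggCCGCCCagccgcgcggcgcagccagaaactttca
Notch3: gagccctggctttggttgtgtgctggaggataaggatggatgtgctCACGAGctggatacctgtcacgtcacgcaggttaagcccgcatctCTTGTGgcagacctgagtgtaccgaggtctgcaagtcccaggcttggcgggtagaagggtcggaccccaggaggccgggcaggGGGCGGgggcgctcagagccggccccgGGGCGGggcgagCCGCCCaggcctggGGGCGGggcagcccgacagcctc
Nrarp: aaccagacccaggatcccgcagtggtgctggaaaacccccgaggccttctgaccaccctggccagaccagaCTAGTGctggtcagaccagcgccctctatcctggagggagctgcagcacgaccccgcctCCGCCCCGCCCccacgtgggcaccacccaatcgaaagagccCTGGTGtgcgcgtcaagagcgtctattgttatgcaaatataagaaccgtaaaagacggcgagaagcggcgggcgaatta

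Each of the 4 windows held both motifs: 5 GC boxes and 1 N box before Notch1, 5 and 1 before Notch2, 4 and 2 before Notch3, and 2 and 2 before Nrarp. Of 32851 promoter windows of the same length, 32.7% hold a GC box and 36.7% an N box. The core of the RBPJ motif (TGGGAA) was in none of the 4 windows. It was in both windows of Rbpj itself, 2 times in one and 1 time in the other, and 21.6% of all windows hold it. The windows of Rbpj overlap, and the match in the second is the same site as 1 of those in the first. GC content was 66.0% for Notch1, 72.0% for Notch2, 68.8% for Notch3 and 61.2% for Nrarp, against a median of 52.4% over all windows, with 16, 34, 17 and 18 CpG against a median of 6. A match describes letters, not a bound site. Of the 7 members, 6 had an entry.

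Total counts were 4809509 to 16879636 per library (median 10406516). Counts of abundant CD8 T cell transcripts were uneven, with a mean of 10191 per library for Lck, 2483 for Cd3e, 92.0 for Cd8a and 21.3 for Cd3d, so that a low count, such as that of Hes1 or Nrarp, cannot be read as a low level in the cell. The targeted gene, Dot1l, had no lower counts under the label KO: it ranged from 74.89 to 78.76 CPM (counts scaled to library size, TMM) in KO and from 61.06 to 70.44 in WT thymus libraries, from 54.03 to 57.06 and from 47.20 to 51.59 in naive cells, and from 43.83 to 48.35 and from 38.36 to 52.55 in memory cells. The floxed part is not given, so these values do not check the deletion, and KO, Het and WT stand for the labels throughout.

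In KO against WT libraries Notch1 was lower in all 3 subsets, Hes1 was higher in all 3, Notch2 and Notch3 were higher in naive and memory cells, and Nrarp was higher in thymus. A gene is called here when the adjusted p of the edgeR test is under 0.05. In thymus 3 of 7 members were called, where 18.6% of all tested genes were. In naive cells 4 of 7 were called (18.2% of all tested genes), and in memory cells 4 of 7 (22.2%). By direction, 2 members were higher and 1 lower in thymus, where 11.9% and 6.77% of tested genes were. In naive cells 3 were higher and 1 lower (11.1% and 7.11%), and in memory cells 3 and 1 (12.8% and 9.32%). Rbpj and Dtx1 were called in none of these comparisons. The members were chosen with earlier results of these data known. The shares of called members given here and below are not independent of that choice. The term that compares the genotype difference between memory and naive cells called 0 of 7 members (edgeR, 1.79% of all tested genes), with 0 members and 982 genes at an unadjusted p under 0.05 and 0 members by DESeq2. In bulk RNA, fewer cells that hold a transcript and less of it per cell cannot be told apart.

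**Figure D1:**
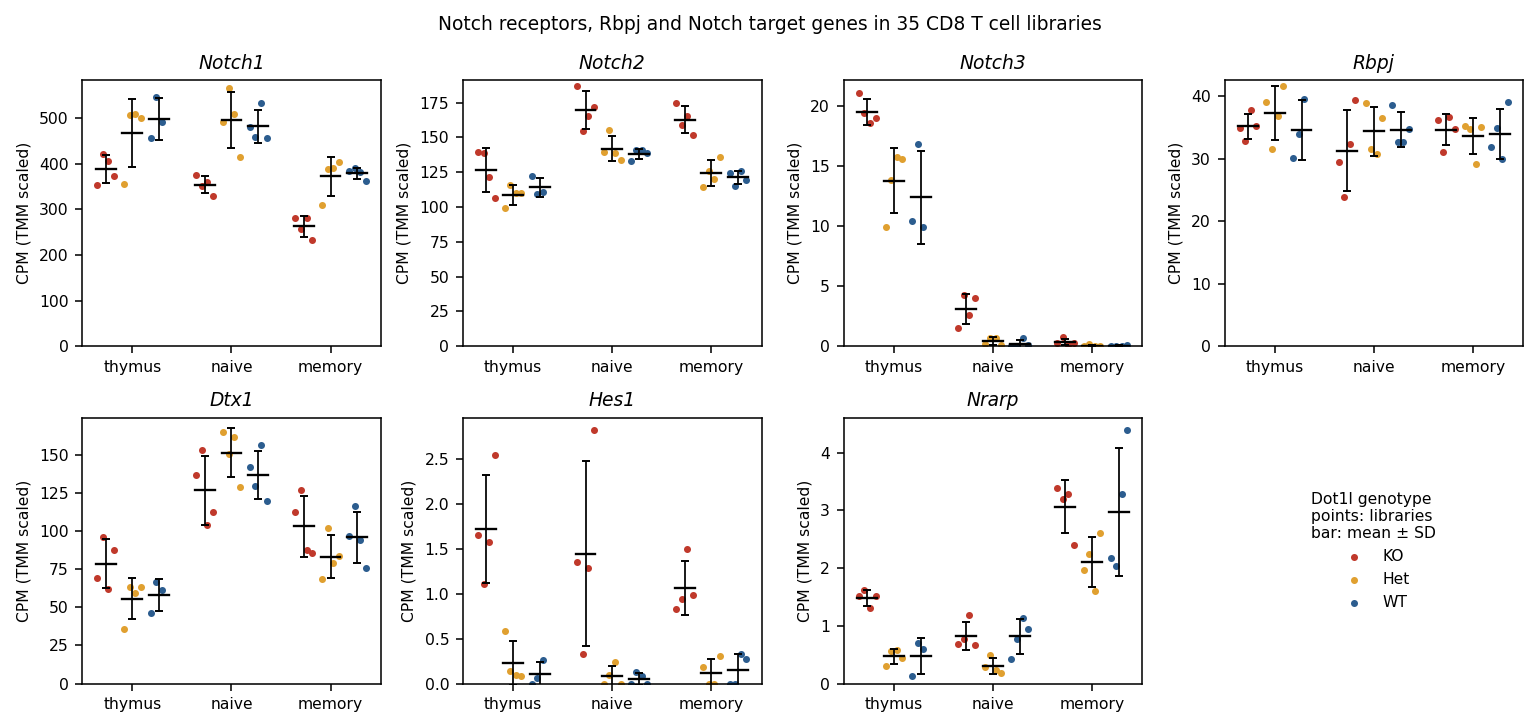
Level of each of the 7 members in CPM (TMM scaled, vertical axis from 0) by subset (thymus, naive, memory), with KO, Het and WT libraries from left to right within a subset. Points are libraries and bars the mean ± SD, cut at 0, and Notch1 is lower and Hes1 higher in every KO group than in the WT group of that subset.

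Notch1 (chromosome 2, 26457903 to 26516663, minus strand, GRCm38, ENSMUSG00000026923) encodes the receptor that drives T cell commitment. In thymus it stood at 354.42, 422.32, 407.13 and 373.61 CPM in KO libraries, against 355.30, 506.84, 509.27 and 499.95 in Het and 455.64, 547.42 and 491.65 in WT libraries. The KO and WT values did not overlap, and 1 Het library fell among the KO values. The log2 fold change of KO against WT was -0.36 ± 0.10 (SE, adjusted p = 0.0116, edgeR), and without WT thymus replicate 2 it was -0.28 with an adjusted p of 0.0957.

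In naive cells Notch1 was at 374.95, 350.35, 359.17 and 330.21 CPM in KO libraries, against 492.21, 566.68, 509.37 and 416.11 in Het and 480.04, 458.39, 533.74 and 457.42 in WT libraries. Every KO value lay below every Het and WT value. The fold change was -0.45 ± 0.10 against WT (log2, adjusted p = 0.000632). In memory cells the values were 281.68, 258.11, 280.66 and 232.60 CPM in KO libraries, against 309.89, 389.04, 390.26 and 403.82 in Het and 383.53, 390.82, 381.24 and 362.25 in WT libraries. Again no KO value reached a Het or WT value, and the log2 fold change against WT was -0.53 ± 0.10 (adjusted p = 5.64e-05). Over the 9 groups, KO memory was the lowest with 263.3 ± 23.2 CPM (SD, n = 4) and stood apart from the next group. The other 8 groups, from 353.7 ± 18.7 in KO naive to 498.2 ± 46.2 CPM in WT thymus libraries, each overlapped with the next in order.

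Notch2 (chromosome 3, 98013527 to 98150361, plus strand, ENSMUSG00000027878) encodes a receptor with the same cleavage route. In naive cells it had 186.72, 154.75, 165.77 and 171.77 CPM in KO libraries, against 139.90, 155.09, 139.10 and 133.92 in Het and 133.38, 140.66, 141.06 and 138.48 in WT libraries. All KO values exceeded the WT values, and 1 Het value lay just above the lowest KO value. The log2 fold change against WT was 0.29 ± 0.08 (adjusted p = 0.00323). In memory cells it had 174.92, 159.14, 165.31 and 152.10 CPM in KO libraries, against 114.09, 125.84, 120.39 and 136.17 in Het and 124.66, 115.25, 125.98 and 119.29 in WT libraries. No KO value overlapped with either, at a log2 fold change of 0.43 ± 0.07 (adjusted p = 1.79e-05). In thymus the values overlapped, with 139.48, 138.95, 121.91 and 106.20 CPM in KO, 99.01, 116.02, 110.13 and 109.78 in Het, and 122.23, 109.50 and 110.90 in WT libraries. That comparison missed the threshold (0.15 ± 0.08, adjusted p = 0.224) and passed it without KO thymus replicate 4 (0.23, adjusted p = 0.0463). Over the 9 groups the mean ran from 108.7 ± 7.09 CPM in Het thymus to 169.8 ± 13.3 in KO naive libraries (SD, n = 4 each), and each group overlapped with the next in order.

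Scaling bears on Notch2 more than on Notch1. Centring each library on the mean log level of the tested genes in place of TMM moved the median gene of KO against WT to -0.09 in thymus and -0.11 in naive and memory cells, on the log2 scale, where with TMM it lay at 0.02, 0.00 and 0.01. With it the share of called genes that were higher in KO libraries amounted to 39.8% for thymus, 35.5% for naive and 36.0% for memory cells, against 63.7%, 61.0% and 58.0% with TMM. The Notch2 difference in naive cells was then 0.18 with an adjusted p of 0.0849, and in memory cells 0.31 with 0.00138. For Notch1 it was -0.46, -0.56 and -0.64 in thymus, naive and memory cells, with adjusted p values of 0.000505, 9.36e-06 and 6.85e-07.

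The ratio of both receptors within a library does not depend on that choice. Per kilobase of exon (CPM per kb, exons of GENCODE M21), Notch2 over Notch1 was 0.431 ± 0.064 in KO, 0.311 ± 0.038 in Het and 0.305 ± 0.046 in WT thymus libraries (SD, n = 4, 4 and 3). In naive cells the ratio was 0.634 ± 0.047 in KO and 0.380 in both Het and WT libraries (SD 0.030 and 0.027, n = 4 each). In memory cells it was 0.819 ± 0.035 in KO, 0.441 ± 0.034 in Het and 0.422 ± 0.022 in WT libraries. The lowest KO value exceeded the highest Het and WT value in each of the 3 subsets. As a share of the summed CPM per kb of Notch1 to Notch4, Notch2 made up 36.3% to 40.0% in KO and 25.7% to 28.7% in WT naive libraries, and 43.7% to 46.1% and 27.9% to 30.2% in memory libraries. The sum itself was 41.1 ± 2.0 CPM per kb in KO and 47.0 ± 2.6 in WT naive libraries, and 33.8 ± 2.5 and 38.1 ± 0.9 in memory libraries. These ratios and shares describe the libraries and carry no test, and since counts are uneven between genes they compare genotypes and not the amounts of the receptors.

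**Figure D2:**
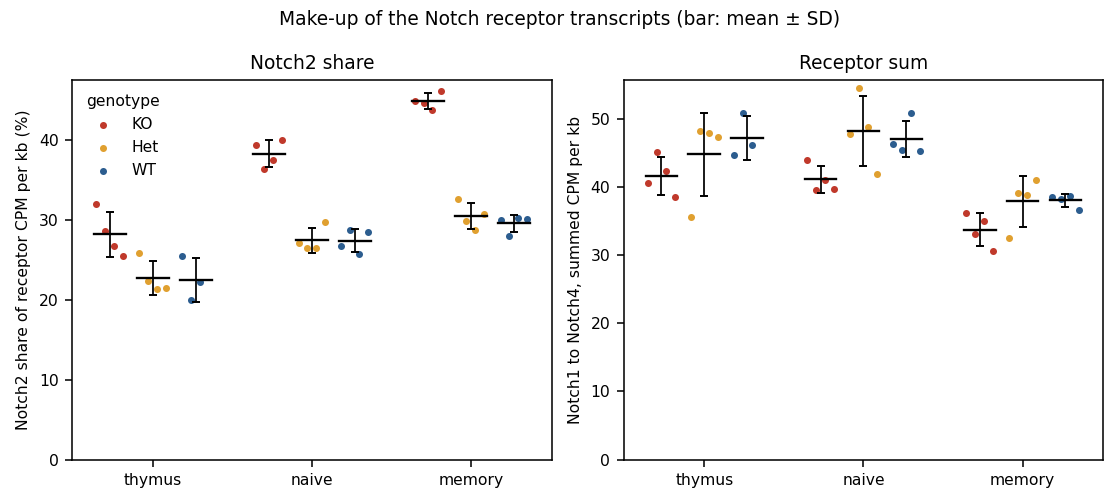
Left, Notch2 as a percentage of the summed CPM per kb of exon of Notch1 to Notch4; right, that sum in CPM per kb, by subset (thymus, naive, memory) with KO, Het and WT from left to right. Points are libraries and bars the mean ± SD, and the Notch2 share lies between 43.7% and 46.1% in KO memory libraries and between 27.9% and 30.2% in WT memory libraries.

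Notch3 (chromosome 17, 32120820 to 32166852, minus strand, ENSMUSG00000038146), the receptor known from immature thymocytes, was mainly a thymus transcript. In thymus it had 21.07, 19.37, 18.60 and 18.98 CPM in KO libraries, against 9.91, 13.81, 15.73 and 15.60 in Het and 10.39, 16.85 and 9.92 in WT libraries. The KO values lay above all others, but the difference missed the threshold (log2 fold change 0.63 ± 0.26, adjusted p = 0.0971). It passed with an adjusted p of 0.0358 without WT thymus replicate 2, the highest WT value, and of 0.00964 in a fit of only the libraries compared.

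In naive cells Notch3 had 1.52, 4.27, 2.58 and 3.98 CPM in KO libraries, against 0.20, 0.69, 0.71 and 0.09 in Het and 0, 0, 0.66 and 0.10 in WT libraries. No KO value overlapped with either group, and 1 WT library held most of the WT counts. The summed counts were 129 in KO and 8 in WT libraries, a ratio of rates of 12.4 with an exact 95% interval of 6.11 to 29.3, which covers counting error only. The log2 fold change was 3.59 ± 0.54 (adjusted p = 4.07e-06), and without WT naive replicate 3 it was 5.74. In memory cells Notch3 had 0.24, 0.75, 0.14 and 0.28 CPM in KO libraries, against 0, 0.16, 0 and 0 in Het and 0, 0, 0 and 0.09 in WT libraries. This rests on 16 counts in KO and 1 in WT libraries (ratio 14.3, interval 2.22 to 599.6). Its adjusted p of 0.0344 rose above the threshold when WT memory replicate 1, 2 or 3 or KO memory replicate 2 was left out (0.105, 0.0869, 0.0781 and 0.146).

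The genotype difference of Notch3 was larger in naive cells than in thymus (difference of log2 fold changes 2.96 ± 0.63, adjusted p = 0.00266, edgeR interaction term), where 6.34% of all tested genes differed in this way. This was the only one of the 7 members called in that term. The naive comparison rests on a WT group near 0, as the values above show, and without WT naive replicate 3 the difference was 5.11.

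Rbpj (chromosome 5, 53466152 to 53657362, plus strand, ENSMUSG00000039191), the DNA-binding partner of all Notch receptors, varied little. Its 9 group means ran from 31.3 ± 6.4 CPM in KO naive to 37.2 ± 4.3 in Het thymus libraries (SD, n = 4 each), and every group overlapped with the next in order. KO against WT gave log2 differences of 0.02 ± 0.12 in thymus cells, -0.14 ± 0.12 in naive cells and 0.03 ± 0.11 in memory cells (adjusted p = 0.939, 0.506 and 0.9). The largest spread was within KO naive libraries, from 23.88 to 39.36 CPM.

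Hes1 (chromosome 16, 30064384 to 30067796, plus strand, ENSMUSG00000022528) had few counts but separated KO libraries from all others within each subset. In thymus it had 1.65, 1.11, 1.58 and 2.55 CPM in KO libraries, against 0.59, 0.14, 0.10 and 0.09 in Het and 0, 0.06 and 0.26 in WT libraries. In naive cells it had 1.35, 0.33, 1.29 and 2.82 CPM in KO libraries, against 0, 0.10, 0.24 and 0 in Het and 0, 0.13, 0.09 and 0 in WT libraries. In memory cells it had 0.83, 0.94, 1.5 and 0.99 CPM in KO libraries, against 0.18, 0, 0 and 0.31 in Het and 0, 0, 0.33 and 0.27 in WT libraries. No KO value overlapped with a Het or WT value of its subset, although KO naive replicate 2 came close to them.

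The summed Hes1 counts were 80 in KO and 4 in WT thymus libraries, a ratio of rates of 15.8 (interval 5.92 to 59.2, adjusted p = 0.000245 by edgeR). In naive cells they were 65 and 2 (ratio 25, interval 6.65 to 210.7, adjusted p = 0.000177), and in memory cells 53 and 6 (ratio 7.89, interval 3.40 to 22.5, adjusted p = 0.00221). With each replicate left out in turn the gene kept its call in all 3 subsets, with a highest adjusted p of 0.0165. Hes1 passed the count filter over the 9 groups through its KO libraries, as no Het or WT library exceeded 0.59 CPM. The filter thus favoured a higher value in KO, and the calls are not independent of it. In fits of only the libraries compared, Hes1 had too few counts to be tested in naive and memory cells. For Hes1 the interaction terms missed the threshold (adjusted p = 0.886 for naive against thymus and 0.742 for memory against thymus). Within KO libraries the groups from thymus to memory, with 1.72 ± 0.60, 1.45 ± 1.03 and 1.07 ± 0.30 CPM (SD, n = 4 each), overlapped with each other.

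Dtx1 (chromosome 5, 120680202 to 120711927, minus strand, ENSMUSG00000029603) differed by subset, and missed the threshold in every genotype comparison. KO thymus libraries had 61.71 to 96.02 CPM, against 35.48 to 63.61 in Het and 46.47 to 66.49 in WT libraries. In naive cells the ranges were 104.06 to 153.00 in KO, 128.95 to 164.76 in Het and 119.85 to 156.30 in WT libraries, and in memory cells 85.43 to 126.90, 68.29 to 101.98 and 75.91 to 116.27. The ranges overlapped in every genotype comparison. KO against WT gave 0.43 ± 0.20 in thymus cells, -0.11 ± 0.18 in naive cells and 0.11 ± 0.18 in memory cells on the log2 scale (adjusted p = 0.156, 0.758 and 0.753). Against Het it gave 0.50 ± 0.19 in thymus (adjusted p = 0.0589), which passed with DESeq2 (adjusted p = 0.032), with estimates that were not robust (0.0317) and without KO thymus replicate 3 (0.0299). Over the 9 groups the mean ran from 55.6 ± 13.5 CPM in Het thymus to 151.4 ± 16.2 in Het naive libraries (SD, n = 4 each), and each group overlapped with the next.

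Nrarp (chromosome 2, 25180758 to 25183339, plus strand, ENSMUSG00000078202) differed by genotype in thymus. It had 1.51, 1.62, 1.30 and 1.51 CPM in KO thymus libraries, against 0.30, 0.56, 0.58 and 0.44 in Het and 0.13, 0.70 and 0.60 in WT libraries. The KO values were close together and above all others (log2 fold change against WT 1.46 ± 0.38, adjusted p = 0.00435). In naive cells it had 0.68, 0.77, 1.18 and 0.66 CPM in KO libraries, against 0.29, 0.50, 0.24 and 0.18 in Het and 0.43, 0.77, 1.14 and 0.94 in WT libraries. There the KO and WT values overlapped (adjusted p = 0.898) and the Het values were the low ones. In memory cells it had 3.39, 3.19, 3.28 and 2.40 CPM in KO libraries, against 1.96, 2.24, 1.60 and 2.61 in Het and 2.17, 2.03, 3.29 and 4.39 in WT libraries, with overlap between all 3 genotypes. The genotype difference was smaller in memory cells than in thymus (interaction -1.39 ± 0.46, adjusted p = 0.0487), where 9.27% of all tested genes were called. That call was lost with DESeq2 (adjusted p = 0.0812) and without WT thymus replicate 1 or 3, WT memory replicate 3 or 4, or any 1 of the KO thymus and KO memory libraries (adjusted p 0.0514 to 0.153). In order of level, the memory groups and KO thymus came first, and the other 5 groups followed without overlap.

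Nrarp lies almost wholly under an antisense gene, Gm38287, and Notch1 and Notch3 partly under others (Gm13568 and 0610009E02Rik, and Gm17276). The strand setting of the counting is not given in the sources used here, and without it reads of a gene and its antisense partner cannot be told apart. Over all 35 libraries these antisense genes had 0 counts, except for 3 of 0610009E02Rik.

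**Figure D3:**
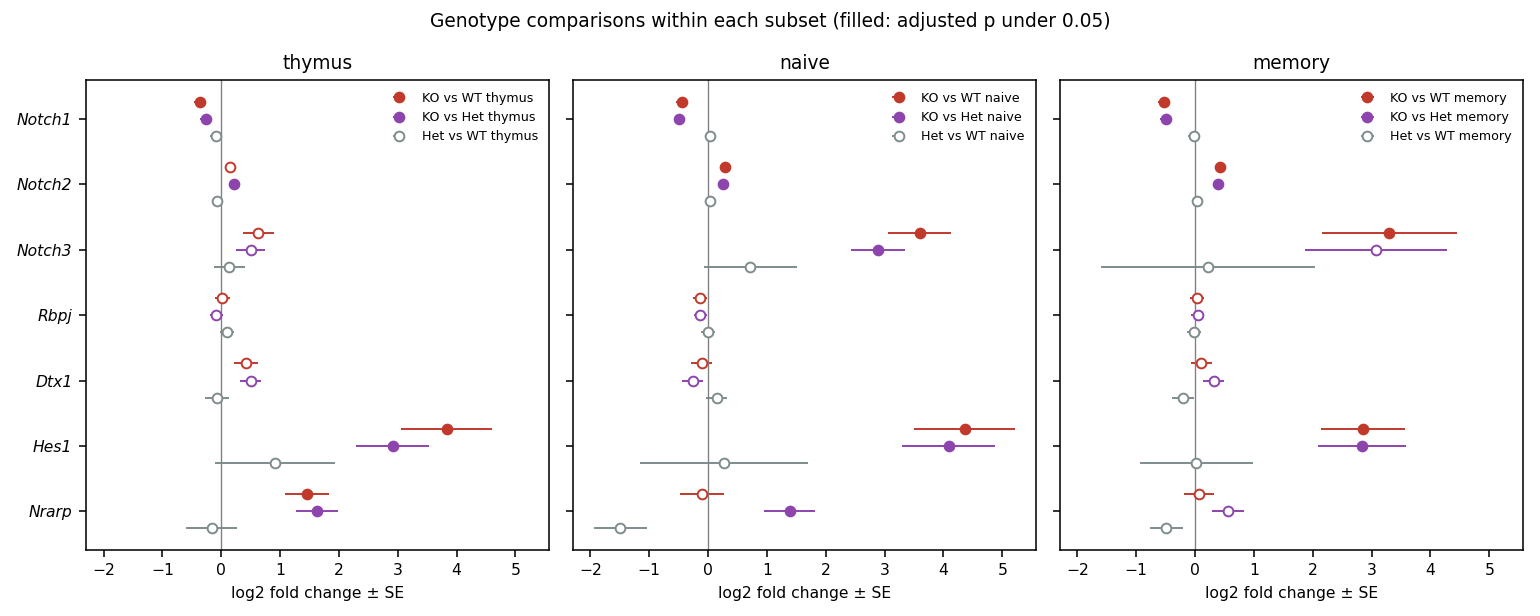
Log2 fold change ± SE (horizontal axis) of each member for KO against WT, KO against Het and Het against WT within thymus, naive and memory cells. Filled points have an adjusted p under 0.05, and none of the Het against WT points is filled, while the Hes1 points of KO against WT and of KO against Het are filled in all 3 subsets.

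Against Het libraries, which share the KO libraries with the comparison above, 4 of 7 members were called in thymus (19.1% of all tested genes), 5 in naive (16.9%) and 3 in memory cells (20.2%). Notch1 fell in KO libraries by 0.27 ± 0.10 in thymus cells, 0.49 ± 0.10 in naive cells and 0.50 ± 0.10 in memory cells (log2, adjusted p = 0.0464, 0.000232 and 0.000131). The thymus call was lost without KO thymus replicate 1, 3 or 4 or Het thymus replicate 2, 3 or 4 (highest adjusted p 0.14) and with only the libraries compared (0.0591). Notch2 was higher by 0.22 ± 0.08, 0.26 ± 0.07 and 0.39 ± 0.08 (adjusted p = 0.0339, 0.0105 and 7.85e-05), and centring on the mean log level ended the call in thymus (0.12, adjusted p = 0.293) and in naive cells (0.15, adjusted p = 0.156). The Notch2 call was also lost in thymus without KO replicate 1 or 2 or Het replicate 1 or 4 (highest adjusted p 0.174), with no filter on low counts (0.154) and with only the libraries compared (0.188), and in naive cells without KO replicate 1 (0.0666). Hes1 was called in all 3 subsets, with 80 against 10 counts in thymus, 65 against 3 in naive and 53 against 5 in memory libraries. The ratios of rates were 8.02 (interval 4.14 to 17.4), 20.3 (6.63 to 100.8) and 7.58 (3.05 to 24.3).

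Notch3 was higher in KO than in Het naive libraries by 2.88 ± 0.46 (log2, adjusted p = 1.3e-05), and in memory cells 16 counts stood against 1 (ratio 11.4, interval 1.78 to 479.7, adjusted p = 0.0674, and 0.0209 by DESeq2, 0.0477 without KO memory replicate 3 and 0.0432 without Het memory replicate 2). Nrarp was higher by 1.62 ± 0.36 in thymus (adjusted p = 0.000744) and by 1.38 ± 0.44 in naive cells (adjusted p = 0.022). The naive Nrarp call was lost without KO naive replicate 3 or Het naive replicate 1, 3 or 4 (highest adjusted p 0.098). In KO against Het naive libraries, equally numbered replicates deviated together. With the replicate number as a block 4 members were called there: Dtx1 was added (-0.26, adjusted p = 0.0478), and Hes1 and Nrarp had too few counts to be tested among those libraries alone. The share of all tested genes called with that block is not given here.

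Het against WT gave 0 called members in each subset by edgeR and by DESeq2. At an unadjusted p under 0.05 there was 1, Nrarp in naive cells, which was lower in Het libraries (log2 -1.49 ± 0.45, unadjusted p = 0.00191, adjusted p = 1). Of all tested genes, 0%, 0% and 0.00971% were called in thymus, naive and memory cells, with 636, 275 and 527 genes at an unadjusted p under 0.05 and 0, 0 and 2 called by DESeq2.

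**Figure D4:**
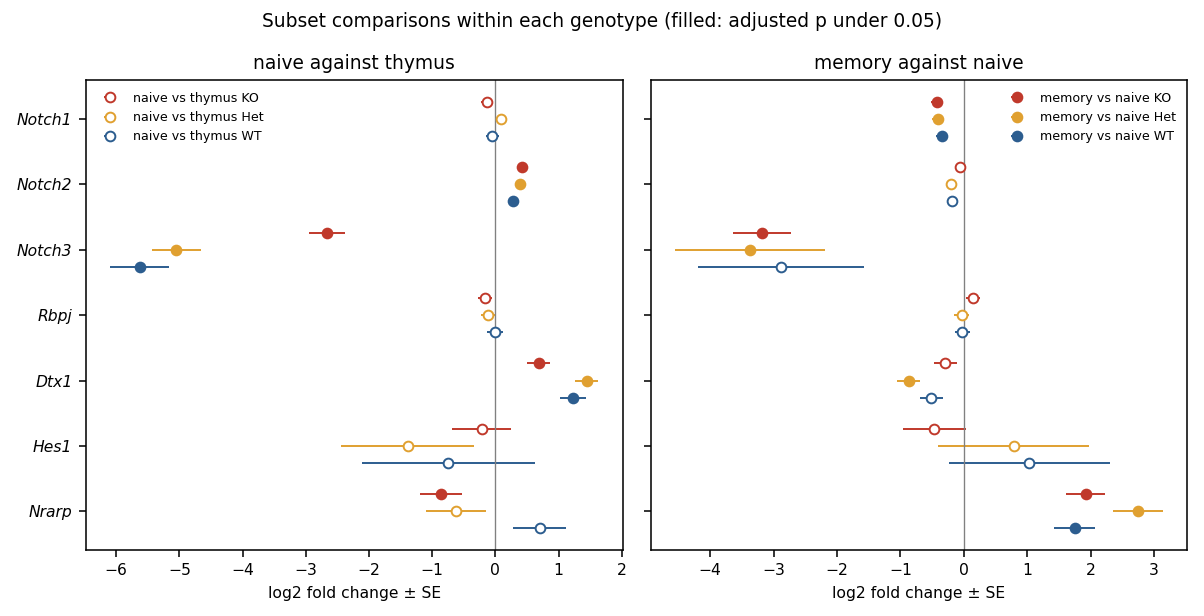
Log2 fold change ± SE (horizontal axis) of each member for naive against thymus cells (left) and memory against naive cells (right), for KO, Het and WT from top to bottom. Filled points have an adjusted p under 0.05: Notch3 lies at -2.66 in KO, -5.04 in Het and -5.62 in WT naive against thymus libraries.

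Across subsets the members moved in opposite directions. Naive against thymus cells, Dtx1 and Notch2 were higher and Notch3 was lower in every genotype. In KO libraries 4 of 7 members were called (44.1% of all tested genes), in Het 3 (39.5%) and in WT 3 (32.2%). Dtx1 rose by 0.69 ± 0.18 in KO, 1.44 ± 0.19 in Het and 1.22 ± 0.20 in WT cells (log2, adjusted p = 0.003, 3.42e-07 and 2.42e-05). Notch2 rose by 0.42 ± 0.07, 0.38 ± 0.08 and 0.28 ± 0.08 (adjusted p = 7.76e-06, 5.08e-05 and 0.00642). Notch3 changed by -2.66 ± 0.28, -5.04 ± 0.39 and -5.62 ± 0.46 (adjusted p = 7.84e-10, 8.28e-13 and 5.87e-12), and by -7.79 in WT cells without WT naive replicate 3. Thus KO naive libraries kept 3.09 ± 1.28 CPM beside 0.42 ± 0.32 in Het and 0.19 ± 0.32 in WT naive libraries (SD, n = 4 each). Nrarp was also lower in KO naive than KO thymus cells (-0.86 ± 0.33, adjusted p = 0.0314), a call lost without KO thymus replicate 2 or 4 or KO naive replicate 1, 2 or 4 (highest adjusted p 0.0878) and without a filter on low counts (0.0909).

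Memory against naive cells, Notch1 was lower and Nrarp higher in every genotype. Called members numbered 3 in KO (17.3% of all tested genes), 4 in Het (16.9%) and 2 in WT libraries (15.1%). Notch1 fell by 0.42 ± 0.10 in KO, 0.41 ± 0.10 in Het and 0.35 ± 0.10 in WT memory cells (log2, adjusted p = 0.00122, 0.00164 and 0.00934). Nrarp rose by 1.92 ± 0.31, 2.75 ± 0.39 and 1.75 ± 0.32 (adjusted p = 7.55e-06, 5.47e-07 and 6.49e-05). Notch3 was lower in KO memory cells (-3.18 ± 0.46, adjusted p = 2.33e-06), and in Het cells 1 count in memory stood against 16 in naive libraries (ratio 0.0703, interval 0.00168 to 0.453, adjusted p = 0.0446, above the threshold without 1 of 5 libraries, up to 0.134). Dtx1 was lower in Het memory cells (-0.87 ± 0.18, adjusted p = 0.000901), and missed the threshold in KO cells (-0.29 ± 0.18, adjusted p = 0.309). In WT cells it missed the threshold (-0.52 ± 0.18, adjusted p = 0.0552), as did Notch2 (-0.19 ± 0.08, adjusted p = 0.0807). In WT cells equally numbered replicates deviated together, and with the replicate number as a block both were called, Dtx1 with an adjusted p of 1.46e-08 and Notch2 with 0.0118, which gave 4 called members in place of 2. The share of all tested genes called with that block is not given here, so the 4 cannot be set against it.

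Beyond the 7 members, the Notch pathway was read through 73 genes in lists of ligands, the receptor Notch4, receptor processing, turnover, nuclear partners and targets, of which 56 had enough counts. KO against WT, 9 were higher and 7 lower in thymus, 28.6% of those tested against 18.6% of all genes. In naive cells 14 were higher and 4 lower (32.1% against 18.2%), and in memory cells 11 and 4 (26.8% against 22.2%). The median log2 fold change over the 56 was -0.02 in thymus cells, 0.09 in naive cells and 0.05 in memory cells, where the median of all tested genes was 0.02, 0.00 and 0.01. Genes of the pathway thus moved in both directions, and the lists were chosen with earlier results of these data known.

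Of 5 ligand genes, Jag2 alone had enough counts. It encodes a Jagged ligand and had 22.7 ± 5.1 CPM in KO and 10.4 ± 0.9 in WT thymus libraries (SD, n = 4 and 3), and was called higher in thymus, naive and memory cells (log2 1.12 ± 0.19, 0.84 ± 0.17 and 0.81 ± 0.17). Notch4 was called in none of them. Of 8 tested genes of receptor cleavage, Furin, the convertase that makes the first cut, rose by 0.28 ± 0.09, 0.98 ± 0.08 and 0.80 ± 0.08, and reached 135.8 ± 9.6 CPM in KO against 69.1 ± 4.2 in WT naive libraries (SD, n = 4 each). Adam10, the protease of the ligand-dependent cut, fell by 0.26 ± 0.06 in naive and 0.33 ± 0.06 in memory cells. Of 5 glycosylation genes, Pofut1, which adds O-fucose to the receptors, was called once, lower in naive cells (-0.29 ± 0.11, adjusted p = 0.0498).

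Among 11 tested genes of trafficking and turnover, the Deltex family genes Dtx4 and Dtx3 rose in naive cells (1.64 ± 0.20 and 1.06 ± 0.14) and in memory cells (1.82 ± 0.20 and 0.93 ± 0.13). Dtx4 stood at 23.8 ± 6.9 CPM in KO against 7.58 ± 1.06 in WT naive libraries (SD, n = 4 each). Fbxw7, the ubiquitin ligase subunit that marks the intracellular domain for degradation, rose by 0.34 ± 0.09 in thymus and 0.34 ± 0.08 in naive cells. Numb, an endocytic Notch inhibitor, fell by 0.33 ± 0.10 and 0.30 ± 0.09 in the same subsets, while its relative Numbl and the ligase gene Itch were higher in memory cells (0.96 ± 0.21 and 0.22 ± 0.07), and Numbl also in naive cells (0.66 ± 0.23). Of the Mastermind coactivators, Maml2 fell in all 3 subsets (-0.47 ± 0.09, -0.29 ± 0.09 and -0.64 ± 0.09) and Maml3 rose in naive (0.75 ± 0.12) and memory cells (1.62 ± 0.13). Maml3 had 64.1 ± 14.9 CPM in KO against 20.7 ± 3.4 in WT memory libraries. The acetyltransferase gene Kat2a was called in thymus (0.25 ± 0.09, adjusted p = 0.0496).

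Of 9 tested corepressor genes 3 were lower in thymus, L3mbtl3 (-0.77 ± 0.12), Kdm5a (-0.21 ± 0.06) and Spen (-0.23 ± 0.07). This is 33.3% called, against 18.6% of all tested genes. In naive cells 11.1% of the corepressor genes were called (18.2% of all tested genes), and in memory cells 22.2% (22.2%). L3mbtl3 and Kdm5a encode chromatin proteins that RBPJ recruits, and Spen a scaffold for them. Cir1, a corepressor adaptor, was higher in naive and memory cells (0.52 ± 0.11 and 0.53 ± 0.10), and L3mbtl3 lower in memory cells (-0.37 ± 0.11). Of the hairy family targets, 3 of 7 had enough counts. Beside Hes1, Heyl was called higher in all 3 subsets, with 63 counts in KO against 4 in WT thymus libraries (ratio 12.4, interval 4.61 to 46.9, adjusted p = 0.00113). In naive cells 45 counts stood against 1 (ratio 34.6, interval 5.90 to 1396.7, adjusted p = 0.000858), and in memory cells 18 against 0 (adjusted p = 0.00699). With a floor of 3 counts set for the WT group, the memory ratio is 5.36. This value leaves out the counting error of the 18 KO counts, so it is no lower bound. Most Heyl counts lay in KO libraries, so that the group where it is high helped it pass the count filter, as for Hes1. Hes6 was called in none of the 3.

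Of 16 genes described as Notch regulated in T cells, 12 were tested. KO against WT, 4 were called higher and 2 lower in thymus, 5 and 0 in naive, and 2 and 1 in memory cells. Of all tested genes, 18.6%, 18.2% and 22.2% were called in thymus, naive and memory cells. The share of this list was above that in thymus and naive cells and close to it in memory cells. This list too was chosen with earlier results of these data known, so its shares are not independent of that choice. Igf1r, which encodes the insulin-like growth factor receptor, rose in all 3 subsets by 1.15 ± 0.19, 1.35 ± 0.16 and 3.14 ± 0.18, and had 101.7 ± 17.9 CPM in KO against 11.3 ± 3.9 in WT memory libraries (SD, n = 4 each). The T-box factor genes Eomes and Tbx21 rose in thymus (2.29 ± 0.21 and 2.86 ± 0.40) and in naive cells (1.28 ± 0.17 and 2.22 ± 0.27), and Eomes also in memory cells (0.80 ± 0.16). Gata3, a T cell transcription factor gene, rose in naive cells (0.63 ± 0.09), Bcl11b, which keeps T cell identity, fell in thymus (-0.54 ± 0.13), and the pseudokinase gene Trib2 fell in thymus (-0.52 ± 0.16) and in memory cells (-0.69 ± 0.16). All values of the last paragraphs are log2 fold changes ± SE unless a CPM is named.

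**Figure D5:**
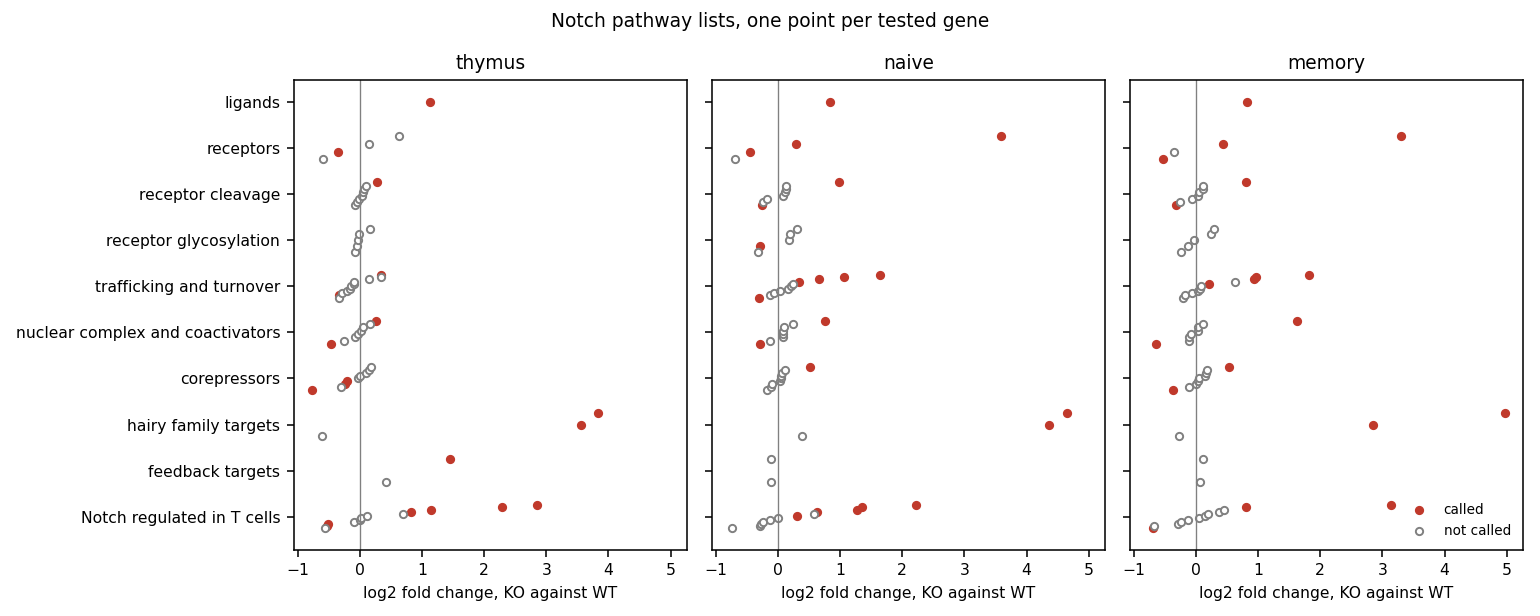
Log2 fold change of KO against WT (horizontal axis) for each tested gene of the Notch pathway lists, the 7 members included, in thymus, naive and memory cells. Filled points have an adjusted p under 0.05, with Maml2 to the left and Maml3 to the right in naive and memory cells. The fitted value of Heyl in memory cells stands against 0 WT counts and is no bound.

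Of 10 markers of CD8 T cells, the sorted population, all were tested, and Cd247 was called lower in KO against WT libraries in all 3 subsets, Cd8b1 in thymus and memory cells and Cd8a in memory cells. Their sum was 1206 to 1285.8 CPM in KO and 1327.5 to 1525.5 in WT thymus libraries, 1081.4 to 1371.1 and 1111.8 to 1358.7 in naive, and 1112.3 to 1368.8 and 1288.8 to 1423 in memory libraries. Marker genes of other cell types also moved with some of these results. The 10 markers of double positive and earlier thymocytes, 6 of them tested, summed to 4.52 to 7.67 CPM in KO and 0.866 to 3.12 in WT naive libraries, with Kit and Arpp21 called higher. In KO naive libraries Rag1 was at 0 counts, while Dntt had 69 counts against 29 in WT naive libraries. Ptcra and Cd4 had 0 and 1 counts in KO naive libraries. They were near 0 in thymus too, with 4 and 6 counts in KO and 2 and 3 in WT thymus libraries, so their low counts say little. In thymus this sum was 29.0 to 44.7 CPM in KO and 19.8 to 27.2 in WT libraries, with Rag1 called higher. In memory cells, where Notch3 had 16 counts in KO and 1 in WT libraries, it was 1.03 to 1.37 CPM in KO and 0.311 to 1.17 in WT libraries, with Kit (17 counts in KO and 2 in WT libraries) and Dntt (8 and 0) called higher. The 6 markers of innate-like and gamma delta T cells, 3 of them tested, summed to 5.59 to 12.9 CPM in KO and 0.217 to 4.35 in WT naive libraries, and to 5.23 to 14.8 and 1.9 to 3.6 in thymus. Zbtb16 was the called one in both, and Trdc was at 0 in every library. WT naive replicate 3, which had the highest Notch3 of its group, also had the highest sums of its group for both lists (3.12 and 4.35 CPM).

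The 8 natural killer cell markers, 3 of them tested, summed to 41.2 to 58.5 CPM in KO and 9.18 to 14.1 in WT thymus libraries, to 121.2 to 188.9 and 50.7 to 74.0 in naive, and to 291.1 to 369.3 and 176.9 to 203.4 in memory libraries. Eomes was the called one, and over the 35 libraries it made up most of the sum, with a mean of 109.3 CPM. Nkg7 and Klrk1 had 4.48 and 1.42 CPM and were not called in KO against WT. The sum thus mainly follows Eomes, already named above among the genes described as Notch regulated. Ncr1 was at 0 throughout. The 5 markers of CD4 and regulatory T cells, 3 of them tested, summed to 3.94 to 11.7 CPM in KO and 1.08 to 4.34 in WT naive libraries, and to 16.0 to 26.1 and 7.76 to 12.2 in memory libraries, with Zbtb7b called higher in both and Ctla4 lower in memory cells. The 15 B cell markers, 10 of them tested, summed to 15.9 to 26.3 CPM in KO and 7.96 to 17.3 in WT thymus libraries, with Cd79b called higher. The 15 myeloid and dendritic cell markers, 2 of them tested, summed to 0.939 to 2.62 CPM in KO and 0.259 to 0.756 in WT thymus libraries, without overlap and with Itgax called higher, while S100a8, S100a9 and Clec9a were at 0 throughout. B cell markers summed to 13.8 to 263.2 CPM in KO and 14.9 to 113.9 in WT naive libraries, with 0 of 10 tested called (edgeR) and the highest sum in KO naive replicate 4, which also had the highest Hes1 of its group. Without that library Hes1 kept its call in naive cells, with a log2 fold change of 3.80. In KO naive replicates 1 to 4 the B cell sum was 17.6, 13.8, 48.7 and 263.2 CPM, and Notch2 was at 186.72, 154.75, 165.77 and 171.77 CPM. The part of these marker shifts in the results was not tested.

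Over the 35 libraries, the log2 CPM of other genes was set beside that of each member, among 7821 genes whose log2 CPM averaged 1 or more. The highest Pearson r for Notch1 was with Mbd2 (0.898), Map4k2 (0.891) and Acap2 (0.887), and for Notch2 with Samhd1 (0.914), Pck2 (0.863) and Ndst2 (0.855). For Notch3 it was with Tns1 (0.956), Smo (0.951) and Cdh24 (0.945), for Hes1 with Kctd17 (0.901), Spock2 (0.859) and Dst (0.848), and for Nrarp with Plekhg3 (0.886), Vars (0.881) and Chsy1 (0.874). Dtx1 was most like Plec (0.892), Bcl9l (0.881) and Tmem259 (0.874). Rbpj had no close companion, with Copg2 (0.646), Capza2 (0.633) and Ddx20 (0.632) at the top. These are descriptions over libraries that share depth and the 9 groups, and carry no p.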

How the data were processed

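RNA from 35 libraries of sorted CD8 T cells was sequenced as 65-base single reads from stranded mRNA libraries, per the labels' protocols. The authors deposited 1 table of raw counts for 52636 Ensembl genes, not normalized. The submitters' processing notes name HTSeq 0.9.1, TopHat2 2.1.0 and TopHat as tools, and mm10 and GRCm38 as builds; the annotation and strand setting are not given in the sources used here. Symbols, positions and exon lengths came from GENCODE M21 (GRCm38). Depth was 4809509 to 16879636 counts per library, so genes with a few counts are imprecise. Counting intervals are exact binomial at 95% and cover counting error only.

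Columns were matched to labels by genotype, subset and replicate number. Since the labels do not name separate animals, the spread behind each p value is that of these samples and may in part be technical. By Xist and Y-linked transcripts 11 libraries read as female and 24 as male. Both occur in every group, so the spread is not technical alone. Their shares differ between KO and WT naive and memory groups. Of the genes, 10296 passed filterByExpr over the 9 groups; they were scaled by TMM (factors 0.927 to 1.068) and fitted over all 35 libraries (26 residual degrees of freedom) with robust quasi-likelihood in edgeR 4.0.16 (R 4.3.3). The p values are two-sided and carry a Benjamini-Hochberg adjustment over the whole table, with calls under 0.05. CPM values are TMM scaled, ± SD. Log CPM for likeness used a prior count of 2 and left out genes named only as models (Gm, Rik) and receptor or immunoglobulin segments. The test was checked on simulated data.

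The 7 members and all gene lists were chosen with earlier results of these data known. The text names the members, up to 4 called genes of each pathway list per KO against WT comparison by lowest adjusted p, and the 3 genes most like each member. Dot1l, markers and uncalled genes of a list were named for the results they touch, with their values known. Other settings tried were RLE scaling, centring on the mean log level, no filter or a stricter filter (CPM 1 or more in 4 libraries), dispersion estimates that are not robust, only the libraries compared, a sex covariate read from transcripts, a replicate block, DESeq2 1.42.0, and fits without 1 library at a time.

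Groups share replicate numbers. Deviations from the group means of equally numbered libraries correlated above 0.1 in every pair for KO against Het naive (0.144 to 0.262) and memory against naive WT libraries (0.206 to 0.310). For these the Results also give calls with the replicate number as a block. The main values of both come from the fit without a block and do not account for pairing. The labels themselves state no pairing. Within groups, the 51 pairs of libraries all differed beyond sampling noise (chi-square per gene at least 4.09).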

Additional observations from a re-analysis of the deposited data

Results flagged for a closer look

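In 56 groups of 4 libraries (7 genes in 8 groups), 8 held a library that stood apart from the other 3 by Dixon's criterion. Chance flags about 1 in 20 groups of well measured values, a rate that does not hold for groups near 0. Het thymus replicate 1 stood apart for 3 members: it had the lowest Notch1 of its group (355.30 CPM), the lowest Dtx1 (35.48 CPM) and the highest Hes1 (0.59 CPM). Het memory replicate 1 had the lowest Notch1 of its group (309.89 CPM), and Het memory replicate 3 the lowest Rbpj (29.20 CPM). For Notch3, WT naive replicate 3 (0.66 CPM), Het memory replicate 2 (0.16 CPM) and WT memory replicate 4 (0.09 CPM) were the highest of groups whose other libraries lay at or near 0; both memory groups hold 1 count in all, so that a single count sets the criterion.

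The genotype difference differed between subsets for 2 members by a test of the difference itself. For Notch3 the log2 fold change of KO against WT was larger in naive cells than in thymus by 2.96 (adjusted p = 0.00266). For Nrarp it was smaller in memory cells than in thymus, with a difference of -1.39 (adjusted p = 0.0487).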

How the results depend on the processing

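Of 2227 values of single members under the alternatives, 2136 kept their side of the threshold, 59 lost and 32 gained a call. Of the values called in the main or the alternative fit, 0 changed sign. Values called in neither fit were not checked for sign, and some changed it. For Rbpj in KO against WT thymus, a log2 fold change of 0.02 became -0.08 with centring on the mean log level. RLE scaling, the stricter filter and the sex covariate changed none of 126 calls each. In KO against WT memory cells 2 members were called in place of 4 with only the libraries compared and with the replicate block, where Notch3 and Hes1 had too few counts to be tested. In KO against Het, leaving out a replicate gave 2 to 4 called members in thymus in place of 4, and with only the libraries compared 3 in naive cells in place of 5, where Hes1 and Nrarp were not tested. In memory against naive WT cells 4 were called in place of 2 with mean log centring, only the libraries compared, the replicate block and DESeq2. Dtx1 was added by each of them, Notch3 by DESeq2 and Notch2 by the others. DESeq2 called 1607 of all tested genes there and edgeR 1551. Most settings of this paragraph are given without their share of all tested genes. The member counts cannot be set against it there. For the interaction of naive against thymus, leaving out a replicate gave 1 to 2 in place of 1. For memory against thymus 0 remained in place of 1 with no filter, only the libraries compared, the replicate block and DESeq2 (Nrarp adjusted p 0.143, 0.0616, 0.106 and 0.0812), and 0 to 1 with a replicate left out. The cause of the changes beyond untested genes was not tested. In KO against WT thymus libraries, whose numbers do not pair, the replicate block gave Notch3 a log2 fold change of 0.65 (adjusted p = 0.0112), Dtx1 0.35 (0.0361) and Nrarp 1.48 (0.0501). In KO against Het thymus the block ended the call of Notch2 (0.18, adjusted p = 0.178) and added Notch3 (0.48, 0.0256) and Dtx1 (0.48, 0.0107), and in KO against Het memory cells it added Dtx1 (0.30, 0.0416). In KO memory against naive cells it added Dtx1 (-0.30, adjusted p = 0.000302), and in KO naive against thymus cells it ended the call of Nrarp (-0.87, adjusted p = 0.0569) and added Notch1 (-0.15, adjusted p = 0.037). The genes called in the interaction of memory against naive numbered 277 with the block and 184 without, and Het against WT gave 0 to 3 over all alternatives. Beyond the 2 comparisons whose pairs all correlated above 0.1, every library correlated best with its own number in KO memory against naive and KO naive against thymus cells (8 of 8 each). This is a hint from the data, although not every pair correlated above 0.1. In KO against WT thymus 2 of 6 libraries correlated best with their own number. DESeq2 gave no adjusted p for Hes1 in 2 interaction terms. Hes1 outside the KO groups and Notch3 outside the thymus rest on few counts, so the size of their fold changes is poorly fixed there.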
